A study of Mus musculus with 7 samples.

Results

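Replication origins were examined at 10 genes for the enzymes that copy DNA at the replication fork: Prim1, Prim2, Pola2, Pold1, Pold2, Pold3, Pole, Pole2, Pcna and Rfc1. They were named by their function, by a rule that uses no measured value, and make up 10 of the 21627 protein-coding genes on the autosomes and X. All 10 were found in the RefSeq table of the mouse genome (GRCm38.p6, the mm10 build). For each, the gene body with 5 kb on each side was searched for origins and peaks that overlapped it by at least 1 bp.

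The data are short nascent strand sequencing of mouse embryonic stem cells (mESCs), an assay that enriches the short, RNA-primed DNA made where forks have just started. There were 7 samples: 2 libraries in each of 3 conditions and 1 Input, for which no file was analysed here. WT cells were untreated. WT replicate 1 (WT 1) came from another mESC line, given only the genotype WT, and had been submitted earlier. WT replicate 2 (WT 2), the APH and CDC6 libraries and the Input came from TetO-CDC6 mESCs, which carry a doxycycline-inducible CDC6 transgene and were derived from the mouse model of that name. APH cells received 0.5 µM aphidicolin for 2.5 h as mild replication stress. CDC6 cells received doxycycline at 1 µg/ml for 30 h, which is meant to switch on the transgene for CDC6, a licensing factor that helps load the replicative helicase. The labels do not say that the 2 libraries of a condition were separate cultures, so in APH and CDC6 the spread between libraries could be purely technical. In WT the spread also holds the difference between 2 mESC lines and submissions. The p-values rest on all these spreads together. As the WT mean mixes both lines, a difference from WT cannot be fully told apart from one between lines. Libraries of DNA show neither CDC6 levels nor stem cell markers, so neither the induction nor the cell type was checked.

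A replicative fork needs several enzymes in turn. Primase lays down a short RNA primer, polymerase α extends it, and polymerases ε and δ then copy most of the leading and the lagging strand. A clamp loader places the ring-shaped clamp PCNA on primed DNA, where it holds the polymerases. Aphidicolin blocks the catalytic subunits of polymerases α, δ and ε, of which Pold1 and Pole, encoding those of δ and ε, are among the 10 genes. An origin near such a gene is a place where copying of that locus starts, and says nothing of the level of the enzyme.

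Each condition had 1 deposited origin list and each library 1 list of MACS peaks, in which every peak carries the authors' fold over a control shared by all libraries. These folds are the authors' own, and percentile ranks, where given, order the peaks of a library by the authors' −log10 q-value. The origin lists held 20178 (WT), 31653 (APH) and 31384 (CDC6) origins, and the libraries 71435 to 94747 peaks, most in WT 1. Sequencing depth is unknown, so no counting interval can be given, and a gene without a peak has none in a deposited list that ends at a q-value of 0.1. The labels of a further deposited list of each library went against those of the origin lists. The origins listed for WT were 100.0% contained in the list labelled APH 1, those for APH in the list labelled CDC6 1 and those for CDC6 in the list labelled CDC6 2. Both MACS lists of the named condition met 99.4%, 100.0% and 100.0% of the WT, APH and CDC6 origins, against at most 84.4% for both MACS lists of any other condition. At the 10 genes, both MACS lists of the named condition met every origin (7 for WT, 5 for APH, 7 for CDC6). The origin lists and MACS lists are used as labelled.

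Peaks were found at all 10 genes in WT 1 and CDC6 2, at 9 genes in WT 2 and CDC6 1, at 8 genes in APH 2 and at 6 genes in APH 1. At Prim1 the peaks of WT 1, CDC6 1 and CDC6 2 lay across the edge of the window, in the neighbouring gene Naca. Over all protein-coding genes, the share with a peak was 82.3% (WT 1), 74.8% (WT 2), 74.0% (APH 1), 74.9% (APH 2), 78.1% (CDC6 1) and 79.2% (CDC6 2). The summed number of peaks at the 10 genes was 36 (WT 1), 23 (WT 2), 21 (APH 1), 22 (APH 2), 24 (CDC6 1) and 22 (CDC6 2). WT 1 was highest, and the other 5 libraries lay within 21 to 24. The group means were 29.5 ± 9.19 (WT), 21.5 ± 0.707 (APH) and 23.0 ± 1.41 (CDC6; SD, n = 2 each), and without WT 1 the WT value was 23. Of the genes, 6, namely Pola2, Prim2, Pold1, Pold2, Pole and Pole2, had a peak in all 6 libraries, against 62.1% of all genes.

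**Figure D1:**
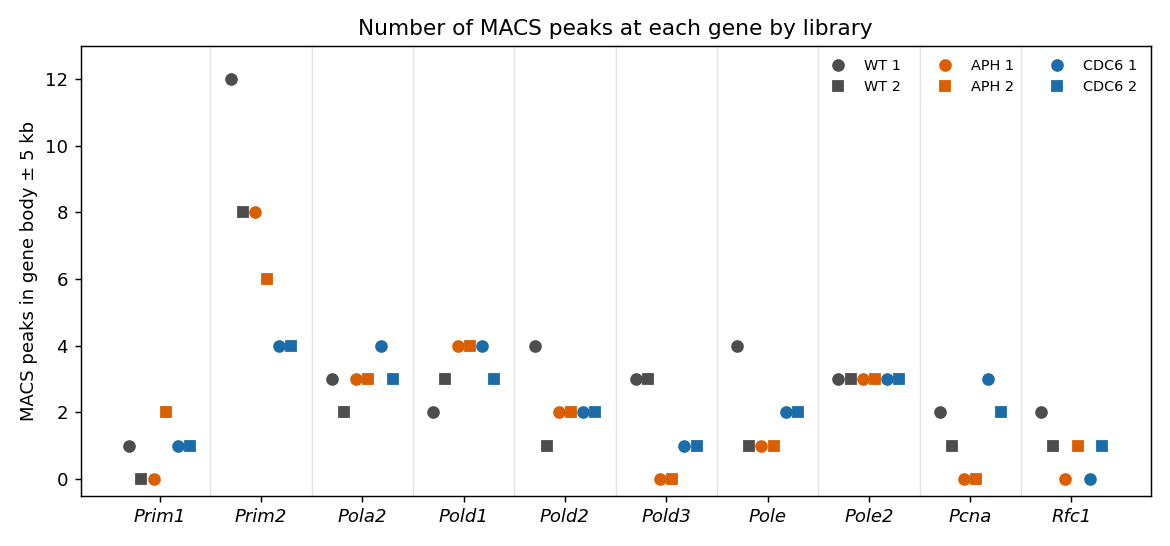
Number of MACS peaks overlapping the gene body with 5 kb on each side (vertical axis) for each of the 10 genes (horizontal axis), with 1 point per library, grey for WT, orange for APH and blue for CDC6. Prim2 has 12 and 8 in WT and 4 and 4 in CDC6, Pole2 has 3 in every library, and Pold3 and Pcna have 0 in both APH libraries.

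Listed origins were fewer. In the WT list 4 of the 10 genes had an origin (Prim2, Pold1, Pole and Pole2), against 48.1% of all genes. The APH list had an origin at 3 (Prim2, Pold1 and Pole2), against 53.6%, and the CDC6 list at 3 (Pold1, Pole and Pole2), against 58.5%. At none of the 10 did the APH list have an origin where the WT list had none, a pattern of 10.2% of all genes, and the same held for the CDC6 list, a pattern of 13.9%. Pole had an origin in the WT list and none in the APH list, as had 4.74% of all genes, and Prim2 had an origin in the WT list and none in the CDC6 list, as had 3.42%. With 1 list per condition these counts have no replicate error and were not tested. They also depend on the window: with 10 kb on each side, 8, 8 and 7 of the 10 genes had an origin in the WT, APH and CDC6 lists, against 53.6%, 60.2% and 64.5% of all genes.

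Promoters are described next, because at Pold3 and Pcna, the pair of genes with peaks in both WT and both CDC6 libraries and none under aphidicolin, the peaks of 3 libraries covered the annotated start. A RefSeq table (GRCm38.p6) held 9 promoter windows, from 250 bases before to 50 bases after a start, for 8 of the 10 genes, with none for Prim2 and Pole. Each sequence below reads 5′ to 3′ on the gene's strand. Capitals mark every match, on either strand, to 3 kinds of motif. The GC box, the form bound by Sp1, was searched as GGGCGG. For the CCAAT box, the form bound by the factor NF-Y, the letters were CCAAT. Sites of the form bound by E2F factors, which drive S-phase genes, were searched as TTTCGCGC and, in a further form, as TTTGGCGC. No letter belonged to matches of more than 1 motif in the sequences shown. Pold3 (chr7:100121453-100121752, minus strand) and Pcna (chr2:132253131-132253430, minus strand) are shown for that shared pattern, Pold1 (chr7:44548766-44549065, minus strand) for peaks in both WT libraries, and Pole2 (chr12:69228141-69228440, minus strand) because no library had a peak there although other peaks lay in its window.
Pold3: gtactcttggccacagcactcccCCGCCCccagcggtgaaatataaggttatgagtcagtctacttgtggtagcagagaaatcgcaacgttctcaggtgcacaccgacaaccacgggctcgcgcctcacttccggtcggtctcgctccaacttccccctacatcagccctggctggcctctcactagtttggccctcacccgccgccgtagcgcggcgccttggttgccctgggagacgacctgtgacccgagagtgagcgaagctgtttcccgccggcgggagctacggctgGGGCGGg
Pcna: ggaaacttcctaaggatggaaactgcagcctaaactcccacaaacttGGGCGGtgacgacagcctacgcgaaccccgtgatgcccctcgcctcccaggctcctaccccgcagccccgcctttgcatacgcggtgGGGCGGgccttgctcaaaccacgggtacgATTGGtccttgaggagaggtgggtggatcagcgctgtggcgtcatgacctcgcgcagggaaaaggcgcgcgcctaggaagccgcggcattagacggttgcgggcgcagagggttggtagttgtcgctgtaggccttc
Pold1: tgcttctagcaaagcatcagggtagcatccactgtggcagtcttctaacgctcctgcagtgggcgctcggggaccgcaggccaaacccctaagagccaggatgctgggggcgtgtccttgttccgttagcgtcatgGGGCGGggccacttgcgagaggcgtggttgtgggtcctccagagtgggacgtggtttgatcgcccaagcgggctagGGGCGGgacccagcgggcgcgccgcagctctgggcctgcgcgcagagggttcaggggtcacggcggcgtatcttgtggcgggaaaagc
Pole2: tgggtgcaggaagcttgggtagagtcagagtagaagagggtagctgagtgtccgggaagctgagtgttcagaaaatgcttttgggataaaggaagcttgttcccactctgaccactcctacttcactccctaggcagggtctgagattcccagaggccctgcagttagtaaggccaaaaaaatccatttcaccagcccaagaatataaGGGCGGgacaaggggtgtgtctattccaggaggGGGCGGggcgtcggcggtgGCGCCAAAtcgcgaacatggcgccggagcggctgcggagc

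No listed origin met any of the 9 promoter windows, whereas 27.8% of the 32619 windows of all genes met an origin of at least 1 list. MACS peaks met 6 of the 9 (WT 1), 1 (WT 2), 0 (APH 1), 1 (APH 2), 2 (CDC6 1) and 3 (CDC6 2). Over all windows the shares were 46.6% (WT 1), 29.5% (WT 2), 30.7% (APH 1), 33.9% (APH 2), 39.7% (CDC6 1) and 39.2% (CDC6 2). The Pold3 promoter was met by peaks of 4.79-fold in WT 1, 2.27-fold in CDC6 1 and 2.31-fold in CDC6 2. At the Pcna promoter the folds were 2.96 (WT 1), 2.68 (CDC6 1) and 2.46 (CDC6 2). Neither promoter was met by a peak in WT 2 or in either APH library, and 3.05% of all promoter windows had this pattern of WT 1 and both CDC6 libraries alone. In WT 2 a peak lay within the gene close to each start, so the pattern at the start rests on WT 1 for the WT condition.

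Other promoters gave other patterns. The Pold1 promoter was met in WT 1 (3.64-fold), WT 2 (3.1-fold) and APH 2 (3.34-fold), by peaks that also lay over the neighbouring gene Nr1h2. In APH 1, CDC6 1 and CDC6 2 the peak over Nr1h2 had its lower end just past the window, in CDC6 1 at chr7:44549116. This pattern thus rests on where the edge of a peak was called. The Rfc1 window of the table (chr5:65335590-65335889) lies inside the gene body and was met in WT 1 (2.34-fold) and CDC6 2 (2.57-fold). Both Pold2 windows were met in WT 1 alone, by the same peak of 2.82-fold. No peak of any library met the promoters of Pola2, Prim1 and Pole2. Pole2 has the single E2F-site match among the 9 windows, GCGCCAAA (TTTGGCGC on the other strand), at position 11 with the start counted as 1, while 0.819% of all windows held such a match. GC boxes were in 7 of the 9 windows against 35.9% of all, and CCAAT boxes in 4 of the 9 against 37.6%. A G-quadruplex motif (4 runs of at least 3 G with 1 to 7 bases between them, on either strand) was in 2 windows, those of Pold1 and the first of Pold2, against 18.7%. The windows had a median GC content of 63.0% (40.7% to 68.3%) and a median of 25 CpG dinucleotides, against 53.0% and 7 over all windows. A match is a description of the letters and not a bound site.

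The genes are taken in the order of their roles at the fork, from primase to the clamp loader. Prim2 encodes the large regulatory subunit of primase and, at 226 kb, had by far the longest window of the 10 (chr1:33453808-33669808 for the gene body, strand not given in the table). It held 12 peaks in WT 1, 8 (WT 2), 8 (APH 1), 6 (APH 2), 4 (CDC6 1) and 4 (CDC6 2). Both CDC6 libraries were below the other 4, while WT and APH met at 8. For the fit, peaks were counted by midpoint and scaled to equal library totals, so its numbers can differ from those printed here by overlap. The CDC6 minus WT difference was -0.95 ± 0.29 (log2 of the peak number plus 1, SE, n = 2 and 2), with a limma adjusted p of 0.608. Without WT 1 the difference was -0.78, with a limma adjusted p of 0.116. The APH minus WT difference was -0.21 (limma adjusted p = 0.856) and the APH minus CDC6 difference 0.74 (limma adjusted p = 0.559). Both differences from WT share the WT libraries, and none of the 3 passed the threshold of 0.05.

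Merged where they overlapped, the Prim2 peaks formed 20 sites, of which 10 were present in 1 library and 2 in all 6. The 2 sites of all libraries each held a listed origin, but of different lists. The origin at chr1:33491211-33491756, 37.7 kb from the lower end of the gene, was in the WT list, with folds of 2.49 (WT 1), 3.16 (WT 2), 2.45 (APH 1), 2.65 (APH 2), 2.43 (CDC6 1) and 2.7 (CDC6 2). WT 2 was highest there, and WT 1 lay among the APH and CDC6 values. The origin at chr1:33587923-33588421, 134 kb from that end, was in the APH list, with folds of 2.73 (WT 1), 2.43 (WT 2), 3.15 (APH 1), 3.22 (APH 2), 2.32 (CDC6 1) and 3.74 (CDC6 2). Both APH libraries were above both WT libraries, and the CDC6 libraries lay on either side of them.

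The origin near the lower end of Prim2, at chr1:33456057-33456841, was again of the WT list alone. Its peaks were 4.09-fold in WT 1, the strongest of Prim2 in any library (percentile rank 89.7), 2.64-fold in WT 2 and 2.3-fold in CDC6 1, and APH 1, APH 2 and CDC6 2 had none. A site 189 kb from the lower end had peaks in both WT libraries and no other (2.33-fold and 2.1-fold), and one at 123 kb in both APH libraries and no other (2.1-fold and 2.34-fold). By the distance between log2 scaled peak numbers over the 6 libraries, the 3 genes nearest to Prim2 were Med12l (0.505), Plekhh2 (0.563) and Cdc20b (0.58). Med12l had 10, 6, 8, 6, 4 and 5 peaks in the order WT 1, WT 2, APH 1, APH 2, CDC6 1 and CDC6 2.

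**Figure D2:**
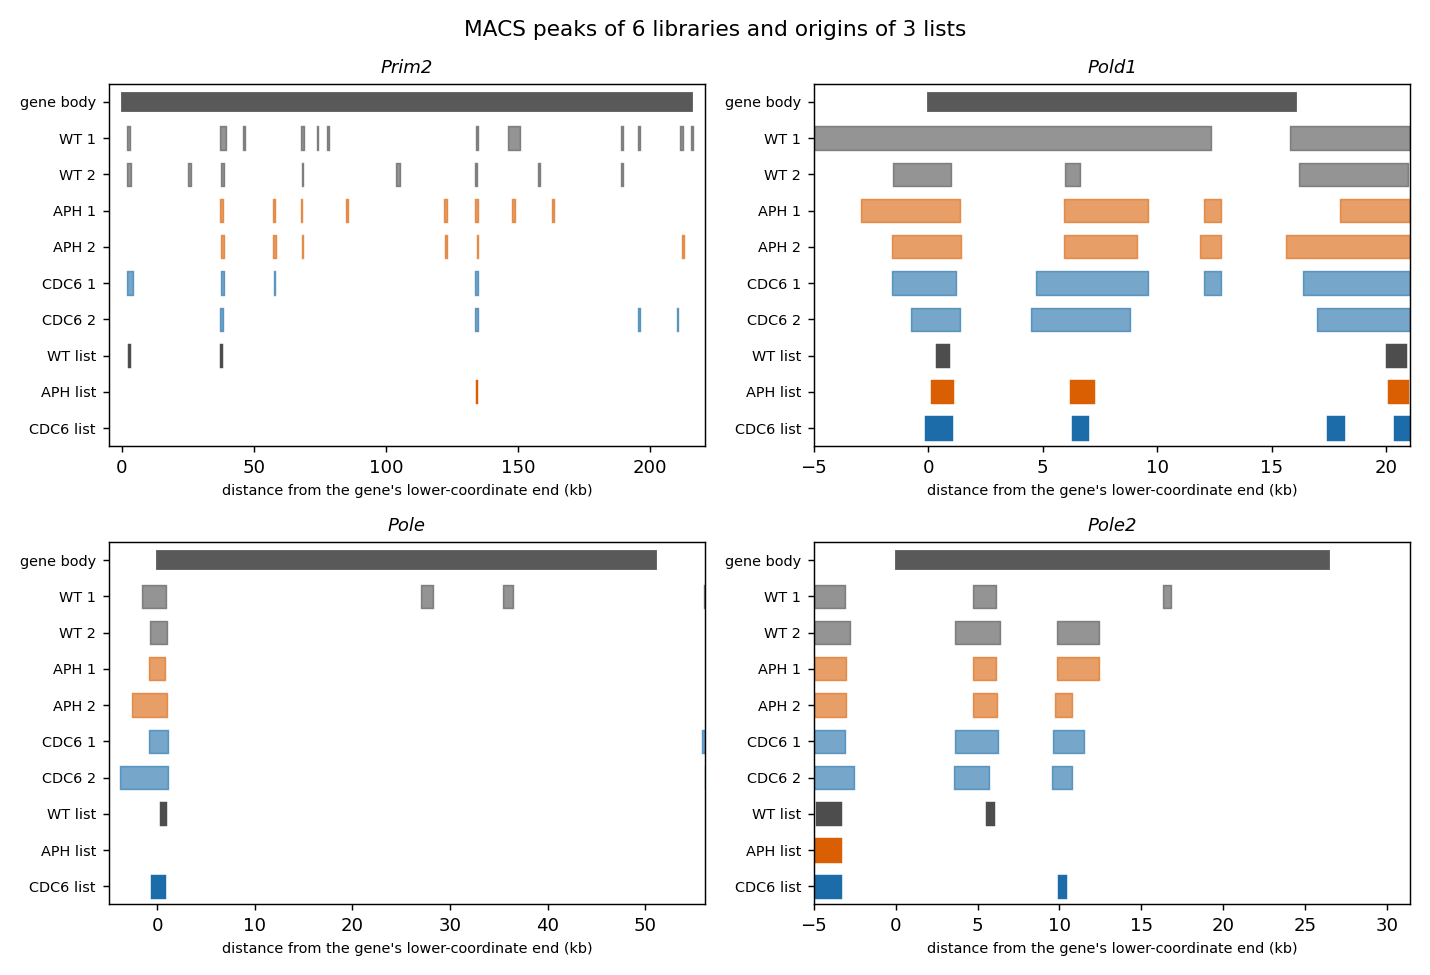
MACS peaks of the 6 libraries (pale bars) and origins of the 3 condition lists (dark bars) at the 4 genes with a listed origin, against the distance in kb from the gene's end of lower coordinate, with the gene body as the top bar and all bars cut at the window. Prim2 has 20 scattered sites, 2 of them in all 6 libraries, whereas the peaks of Pold1 and Pole2 stack at the same places in nearly every library.

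Prim1, which encodes the catalytic subunit of primase (chr10:128015215-128030030, plus strand), had few peaks: 1 (WT 1), 0 (WT 2), 0 (APH 1), 2 (APH 2), 1 (CDC6 1) and 1 (CDC6 2). Its strongest site lay at the edge of the window, in the neighbouring gene Naca, with folds over its whole length of 3.52 (WT 1), 2.33 (WT 2), 2.25 (APH 2), 2.57 (CDC6 1) and 3.12 (CDC6 2). The WT 2 peak lay beyond the window and is not counted for Prim1, and APH 1 had no peak on this site. Origins of the WT and CDC6 lists on that site lay 5.13 and 5.07 kb from Prim1, just outside the 5 kb limit, and the nearest APH origin was 28.6 kb away. The single peak inside Prim1 was in APH 2, at 2.07-fold.

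Pola2, the accessory subunit of polymerase α (chr19:5940543-5964238, minus strand), had no origin in any list. The nearest lay 24.3 to 24.5 kb away, at Capn1. Its peaks numbered 3 (WT 1), 2 (WT 2), 3 (APH 1), 3 (APH 2), 4 (CDC6 1) and 3 (CDC6 2). The groups overlapped at 3, and the limma differences were 0.40 ± 0.27 for APH minus WT (limma adjusted p = 0.733) and 0.51 ± 0.27 for CDC6 minus WT (limma adjusted p = 0.616). A site inside the gene had a peak in all 6 libraries, of 1.97-fold to 2.6-fold. A site in both CDC6 libraries and no other lay 7.95 kb from the lower end, with 2.41-fold in CDC6 1 and 2.17-fold in CDC6 2. Of the 5 Pola2 sites none was on a listed origin, so peaks shared by every library need not be origins of a list.

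Pold1, the catalytic subunit of polymerase δ and a target of aphidicolin (chr7:44532744-44548815, minus strand), had the most listed origins of the 10 genes: 2 in the WT list, 3 in the APH list and 4 in the CDC6 list. Its peaks numbered 2 (WT 1), 3 (WT 2), 4 (APH 1), 4 (APH 2), 4 (CDC6 1) and 3 (CDC6 2). Both APH libraries were above both WT libraries, and CDC6 2 equalled WT 2. The low number in WT 1 came with a peak 24985 bp wide that covered 2 of the origin regions. The APH minus WT difference was 0.72 ± 0.30 (limma adjusted p = 0.625) and the CDC6 minus WT difference 0.50 ± 0.30 (limma adjusted p = 0.627). Counted as bases covered by peaks, the APH minus WT difference was -0.13, the opposite sign, with a limma adjusted p of 0.98.

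The Pold1 origins fell into 4 regions, of which 2 were in all 3 lists. At chr7:44532623-44533824, the end of the gene away from its start, the folds were 3.52 (WT 1), 2.23 (WT 2), 3.65 (APH 1), 4.02 (APH 2), 3.66 (CDC6 1) and 3.74 (CDC6 2). WT 2 was lowest, and WT 1, with a peak 24985 bp wide, lay just under the 4 treated libraries. The region at chr7:44538943-44539984, inside the gene, was in the APH and CDC6 lists and not in the WT list, yet both WT libraries had a peak there. Its folds were 3.52 (WT 1, the same wide peak), 2.07 (WT 2), 2.87 (APH 1), 2.94 (APH 2), 2.44 (CDC6 1) and 2.69 (CDC6 2). The WT 1 fold belongs to the whole wide peak and not to this region alone, so its rank here has no local meaning. WT 2 was below both APH and both CDC6 libraries. The remaining 2 regions lay in Nr1h2, a nuclear receptor gene beside the Pold1 start, at chr7:44550147-44550898 (CDC6 list) and chr7:44552765-44553732 (all 3 lists). In each library a single peak overlapped both, in APH 1 only the edge of the CDC6-listed region, with folds of 3.64 (WT 1), 3.1 (WT 2), 5.4 (APH 1), 3.34 (APH 2), 3.24 (CDC6 1) and 2.77 (CDC6 2). APH 1 stood above the rest, and APH 2 lay between the WT libraries and above both CDC6 libraries.

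The accessory subunits of polymerase δ had no listed origin in their windows. Pold2 (chr11:5872180-5878256, minus strand) had 4 peaks in WT 1, 1 (WT 2) and 2 in each of the other 4 libraries, so the WT libraries lay on either side of the rest. Its peaks ranged from 1.87-fold to 2.82-fold. The nearest origin was an APH origin 5.17 kb away in Aebp1, the neighbouring gene, and the nearest WT and CDC6 origins lay 9.87 and 9.84 kb away. Counted by overlap, Pold2 was nonetheless the densest of the 10 per length. It had 13.5 peaks per 100 kb averaged over the libraries, followed by Pold1 at 12.8. This count includes a site in Aebp1 across the lower edge of the window, with peaks in 5 libraries, which held the APH origin 5.17 kb away. By midpoint, as in the fit, these peaks lie outside the window, so the place of Pold2 above Pold1 rests on counting by overlap.

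Pold3 (chr7:100082110-100121502, minus strand) had 3 peaks in WT 1, 3 (WT 2), 0 (APH 1), 0 (APH 2), 1 (CDC6 1) and 1 (CDC6 2). Both WT libraries were highest and both APH libraries at 0, and the share of all genes with such an order of the 3 groups was not counted. Its mean over the 6 libraries was under the minimum of 2 peaks for the test. Fitted over the 19248 genes with at least 1 peak, the differences were -1.90 for APH minus WT (limma adjusted p = 0.241), -0.87 for CDC6 minus WT (limma adjusted p = 0.31) and -1.02 for APH minus CDC6 (limma adjusted p = 0.215). The Pold3 site shared by libraries was the one next to its start, with folds of 4.79 (WT 1), 2.26 (WT 2), 2.27 (CDC6 1) and 2.31 (CDC6 2). WT 1 was far above the other 3, which lay between 2.26 and 2.31. The other 3 sites were each in 1 WT library. The nearest listed origins were of the WT and APH lists, 9.4 and 9.38 kb away.

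Pole, the catalytic subunit of polymerase ε and another aphidicolin target (chr5:110286319-110337468, strand not given in the table), had 4 peaks in WT 1, 1 (WT 2), 1 (APH 1), 1 (APH 2), 2 (CDC6 1) and 2 (CDC6 2). Its listed origins lay at the end shared with the neighbouring gene Pxmp2, at chr5:110285658-110287166, in the WT and CDC6 lists and not in the APH list. Every library had a peak there, of 4.27-fold (WT 1), 2.57-fold (WT 2), 2.48-fold (APH 1), 2.81-fold (APH 2), 4.12-fold (CDC6 1) and 3.68-fold (CDC6 2). Both CDC6 libraries and WT 1 were high, while WT 2 lay between the APH libraries. Without WT 1, the peaks thus gave no order of WT over APH at the origin that the APH list lacked. A further site, 57.4 kb from the lower end, lay across the upper edge of the window, over P2rx2 and Lrcol1. Over its whole length it had folds of 2.95 (WT 1), 2.26 (WT 2), 3.37 (APH 1), 3.06 (APH 2), 3.2 (CDC6 1) and 3.32 (CDC6 2), and held origins of all 3 lists. Only the peaks of WT 1 and both CDC6 libraries reached into the window, where they are counted for Pole, and the APH origin of this site, 6.86 kb from the gene, was the APH origin nearest to Pole.

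Pole2, the accessory subunit of polymerase ε (chr12:69201773-69228205, minus strand), had 3 peaks in each of the 6 libraries. The APH minus WT difference was 0.20 ± 0.24 (limma adjusted p = 0.856) and the CDC6 minus WT difference 0.14 ± 0.24 (limma adjusted p = 0.874). The strongest peak at any of the 10 genes lay in its flank, at -4.18 kb from the lower end, at chr12:69196723-69198466 within Dnaaf2 and the long non-coding RNA gene 9330151L19Rik. This region was in all 3 lists, with folds of 4.85 (WT 1), 3.89 (WT 2), 5.26 (APH 1), 5.65 (APH 2), 5.86 (CDC6 1) and 5.16 (CDC6 2). Each of the 4 treated libraries was above both WT libraries, but the percentile rank within the library was 97.6 to 98.4 in all 6.

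Inside Pole2, the WT list had an origin at chr12:69207285-69207748 and the CDC6 list another at chr12:69211656-69212176. The WT-listed origin had folds of 3.43 (WT 1), 2.52 (WT 2), 2.9 (APH 1), 2.73 (APH 2), 2.23 (CDC6 1) and 2.64 (CDC6 2). The groups overlapped. The CDC6-listed origin had no peak in WT 1, and folds of 2.97 (WT 2), 2.47 (APH 1), 2.49 (APH 2), 2.82 (CDC6 1) and 2.66 (CDC6 2). WT 2 was the highest of these although the origin is not in the WT list.

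**Figure D3:**
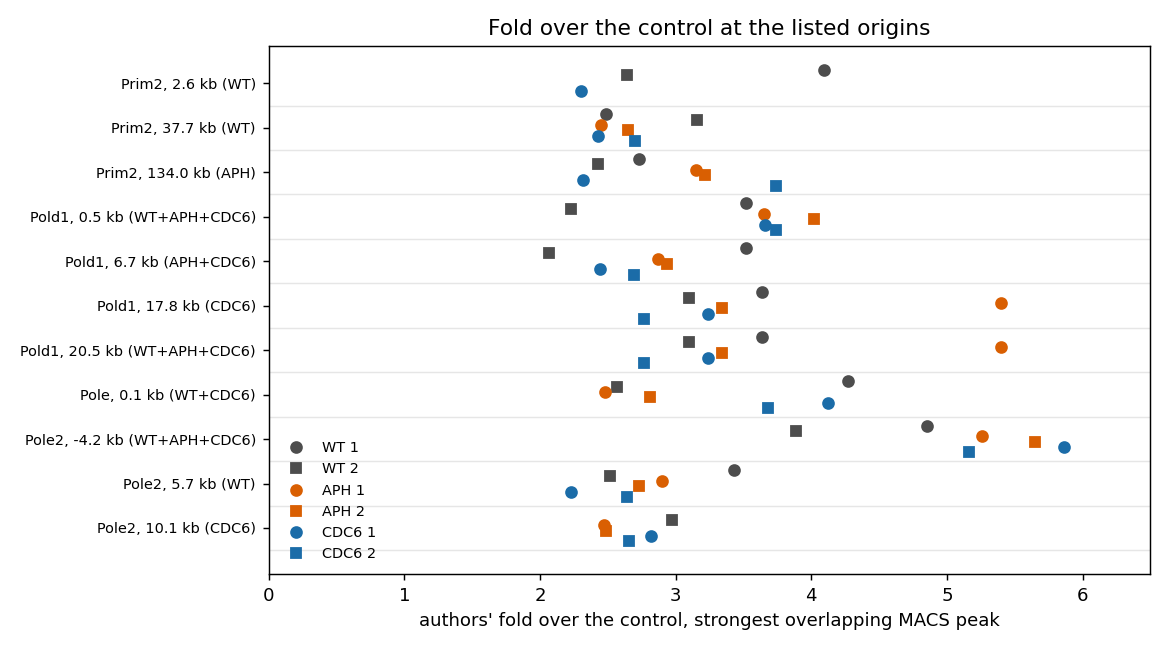
The authors' fold over the control of the strongest MACS peak at each of the 11 listed origin regions, with 1 point per library (circles for replicate 1, squares for replicate 2). Row names give the gene, the distance from its lower end and the lists that hold the region. The Pole2 region at -4.2 kb reaches 5.86, the highest value, and most regions have a point for every library whichever lists hold them.

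Across the 11 origin regions, 8 in gene bodies and 3 in flanks, 62 of 66 pairs of region and library had a MACS peak, against 83.3% of such pairs over the regions of the whole genome. The regions are not all separate, since each library had 1 peak that overlapped both regions in Nr1h2 and WT 1 had 1 wide peak over both regions in Pold1. The 4 pairs without a peak were at the Prim2 origin near the lower end (3) and the CDC6-listed Pole2 origin (1). A peak in all 6 libraries was found at 9 of the 11, against 49.2% of the 46639 regions of the whole genome. There were 6 regions in a single list, 3 of the WT, 2 of the CDC6 and 1 of the APH list. Of these, 4 of 6 had a peak in all 6 libraries, against 19.3% of the single-list regions of the genome. A region listed for 1 condition at these genes was thus mostly one where each library had a called peak.

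The clamp and its loader had no listed origin. Pcna, the sliding clamp and the shortest of the genes (chr2:132249286-132253180, minus strand), had 2 peaks in WT 1, 1 (WT 2), 0 (APH 1), 0 (APH 2), 3 (CDC6 1) and 2 (CDC6 2). Both APH libraries were below the other 4, and WT and CDC6 met at 2. Fitted over the 19248 genes, the differences were -1.20 for APH minus WT (limma adjusted p = 0.241), 0.62 for CDC6 minus WT (limma adjusted p = 0.601) and -1.83 for APH minus CDC6 (limma adjusted p = 0.215). The site at the start of Pcna, which also overlaps Cds2, had folds of 2.96 (WT 1), 2.16 (WT 2), 2.68 (CDC6 1) and 2.46 (CDC6 2). A site in Tmem230, at -1.56 kb from the lower end, was in WT 1 (2.75-fold), CDC6 1 (2.27-fold) and CDC6 2 (3.04-fold). Although no APH library had a peak in the window, an APH origin lay 6.95 kb from the gene in Tmem230, close to a CDC6 origin at 6.96 kb.

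Pold3 and Pcna were thus the 2 of 10 genes with a peak in all 4 WT and CDC6 libraries and in neither APH library, a pattern noticed in these values and held by 282 of all genes (1.30%). Apart from the WT 1 peak at the Pold3 start, the peaks at the shared sites had low to middling percentile ranks, from 12.4 to 67.8. No difference at either gene passed the limma threshold.

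Rfc1, the large subunit of the clamp loader (chr5:65261852-65338617, minus strand), had the fewest peaks per length counted by overlap, 0.96 per 100 kb. It had 2 peaks in WT 1, 1 (WT 2), 0 (APH 1), 1 (APH 2), 0 (CDC6 1) and 1 (CDC6 2). The groups overlapped at 1. Of its 4 sites 3 were in a single library, and the remaining one, 73.7 kb from the lower end, was in WT 1 and CDC6 2. The nearest origins were 6.54 kb (APH), 22.2 kb (CDC6) and 41.7 kb (WT) away.

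**Figure D4:**
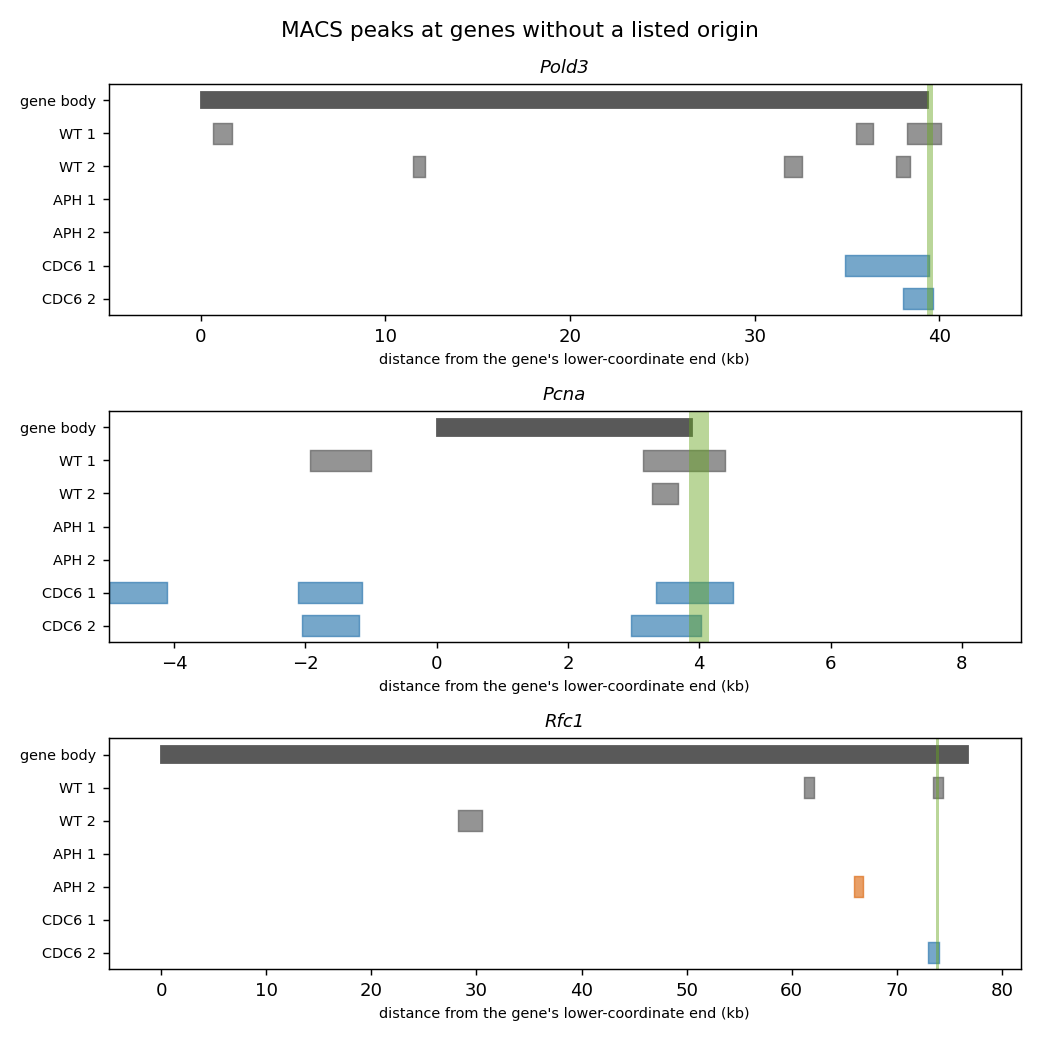
MACS peaks of the 6 libraries at Pold3, Pcna and Rfc1, which have no listed origin, against the distance in kb from the gene's end of lower coordinate. The green band is the RefSeq promoter window of 300 bases. Both APH rows are empty at Pold3 and Pcna, and the bars of WT 1 and both CDC6 libraries meet the band.

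The 10 genes differed widely in peaks per length. In order, the means over the 6 libraries were 13.5 (Pold2), 12.8 (Pold1), 9.6 (Pcna), 8.9 (Pola2), 8.23 (Pole2), 3.36 (Prim1), 3.1 (Prim2), 3.0 (Pole), 2.7 (Pold3) and 0.96 (Rfc1) per 100 kb of window. A gap separated the upper 5 from the lower 5. Window length differed too, from 13.9 (Pcna) to 36.4 kb (Pole2) in the upper 5 and from 24.8 (Prim1) to 226 kb (Prim2) in the lower 5. The 5 kb on each side, with peaks of neighbouring genes and peaks across the edge, make up more of a short window. By midpoint, the peaks on the Naca site fall outside the Prim1 window, so the place of Rfc1 below Prim1 rests on overlap. Among all protein-coding genes Pold2 stood at percentile 94.7 and Rfc1 at percentile 12.9. The median was 5.8 per 100 kb over the 10 genes and 4.56 over all genes, with median windows of 35.1 and 27.3 kb. Per window, Prim2 had the highest mean number, 7.0, while its density was at percentile 34.5.

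**Figure D5:**
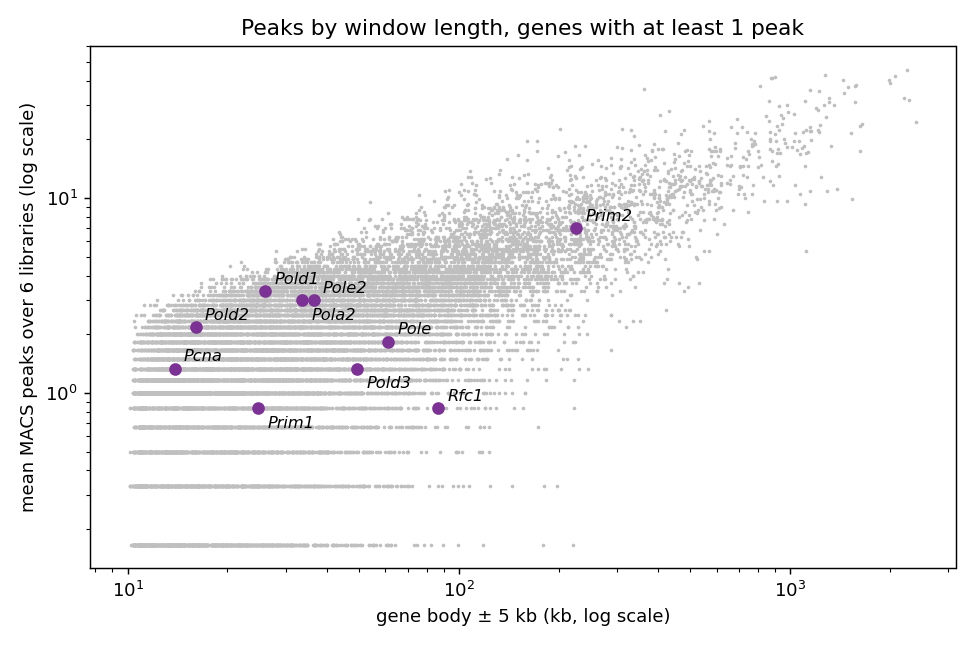
Mean number of MACS peaks over the 6 libraries against the length of the window in kb, both on log scales, for all protein-coding genes with at least 1 peak (grey) and the 10 genes (purple, named). Longer windows hold more peaks. Pold1 and Pold2 lie near the upper edge at their length and Rfc1 near the lower edge.

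Pooled over the 52 sites formed by the 148 peaks in the windows of the 10 genes, 8 sites were in all 6 libraries and 23 in 1 library. Merged over the whole genome, without windows, the peaks formed 164160 sites, of which 15.2% were in all 6 libraries and 40.0% in 1. WT 1 had 11 of those 23, WT 2 had 6, APH 1 and APH 2 had 2 each, and CDC6 1 and CDC6 2 had 1 each. Sites in both libraries of a condition and in no other numbered 1 for WT, 1 for APH and 1 for CDC6. Prim2 alone supplied 10 of the 23, 4 of them of WT 1 and 3 of WT 2. Over the whole genome, 67.6% of the sites present in 1 library were those of a WT library and 45.9% those of WT 1, which had the most peaks.

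The test over all genes called none. Of the 10 genes, 4 (Prim2, Pold1, Pole2 and Pola2) had a mean of at least 2 peaks by midpoint and entered the fit of 8634 genes. None of the 4 was called in any of the 3 comparisons, and limma with Benjamini-Hochberg adjustment called 0 of 8634 genes (0%) in each. At an unadjusted p under 0.05, limma had 658 genes for APH minus WT, 661 for CDC6 minus WT and 731 for APH minus CDC6. Among the 4, 3 were higher and 1 lower in each comparison, with medians of 0.30, 0.32 and 0.14, beside 0.02, 0.14 and -0.15 over all genes tested. WT 1 decided the count for CDC6 minus WT: without it, with WT 2 as the lone WT library, limma called 817 genes, 748 higher and 69 lower, none of them among the 4. For APH minus WT the count was 34 without WT 1 and 28 without WT 2, again with none of the 4.

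Other genes of the fork machinery formed a list of 20, all of them found. Of these, 10 had an origin in the WT list, 12 in the APH list and 14 in the CDC6 list, against 48.1%, 53.6% and 58.5% of all genes. In all 3 lists were 10 of them and in none 6. Their median density was 5.88 peaks per 100 kb, close to the 5.8 of the 10 genes. Presence of an origin differed from WT at 4 of them, each time as an origin that the WT list, the shortest of the 3, lacked. Over all genes, 10.2% had an origin in the APH list and none in the WT list. For the CDC6 list this share was 13.9%. Pold4, the smallest subunit of polymerase δ, and Pole3, a histone-fold subunit of polymerase ε, had one in the CDC6 list alone, and at each gene WT 1, CDC6 1 and CDC6 2 had 1 peak and the other 3 libraries 0. Rfc4, a small subunit of the clamp loader, and Dna2, a nuclease that trims flaps, had one in both the APH and CDC6 lists. Rfc4 had 2 (WT 1), 2 (WT 2), 3 (APH 1), 3 (APH 2), 2 (CDC6 1) and 1 (CDC6 2) peaks, and Dna2 had 5 (WT 1), 2 (WT 2), 3 (APH 1), 4 (APH 2), 4 (CDC6 1) and 4 (CDC6 2), so WT libraries had peaks at both. Of the 20 genes, 10 entered the limma fit and none was called, with 8 higher for APH minus WT, 7 for CDC6 minus WT and 6 for APH minus CDC6. Their median differences were 0.26, 0.24 and 0.03 in that order, beside 0.02, 0.14 and -0.15 over all genes tested. The share of all tested genes that were higher was not counted.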

How the data were processed

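Short nascent strands of 6 mESC libraries were compared. Tools named in the submitters' processing notes are MACS2 2.0.10, bedtools 2.23.0, BWA 0.7.10, Picard 1.107, SAMtools 0.1.19 and FastQC. What each tool did, with which settings, and the way the authors combined libraries are not described in the labels or files. These notes name GRCm38, mm10 and mm9 as builds, and positions in the lists match mm10. The deposited MACS lists give the authors' fold ratio over the shared control, their −log10 p-value and −log10 q-value and a score. The deposited origin lists carry 2 scores of unstated meaning, used once, to shorten lists.

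Peaks with a midpoint in the gene body with 5 kb on each side were counted for each protein-coding gene, scaled to the mean total and put on the scale log2(number + 1). The test was limma 3.58.1 (R 4.3.3; lmFit, then eBayes with trend), all 3 conditions in 1 fit, for genes with a mean of at least 2 peaks, with Benjamini-Hochberg adjustment at 0.05. Numbers printed per library count peaks overlapping by at least 1 bp. The fit was tested on simulated data, with large changes placed only at genes with many peaks and no difference between mESC lines. Of the genes fitted here, Prim2 alone had that many peaks, so the simulation does not cover the others. Replicate numbers were not used to pair the libraries in the main fit. Alternatives were another pseudocount, filter, scaling, window, peak threshold and measure, the second lists, the replicate block and leaving out each library.

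All 10 genes were named. Sites were named where every library, 1 library or both libraries of 1 condition had a peak or an origin lay on them, fork genes where presence of an origin differed from WT, and 3 genes nearest to Prim2. The genes and lists were chosen with earlier results of these data known. Promoters were to be printed where an origin met them. None did, so those shown were chosen after their values were seen. No genome sequence was used here, so origin sequences are not shown.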

Additional observations from a re-analysis of the deposited data

How the results depend on the processing

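The 4 tested genes kept their side of the limma threshold in all 174 alternative values, of which 10 had the other sign. In most alternatives limma called 0 of all genes, so keeping that side says little about the 4. Pold1 did not enter the fit of gene bodies alone, nor Pola2 that of the second lists. Counts over all genes moved more. Without scaling, limma called 17 genes for APH minus WT and 14 for APH minus CDC6. Leaving out each library in turn gave 0 to 34 genes for APH minus WT, 0 to 817 for CDC6 minus WT and 0 to 2 for APH minus CDC6. Where a condition is left with 1 library, that library is assumed to vary like the other groups.

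With 10 kb on each side, 8 genes had a WT origin, 8 an APH origin and 7 a CDC6 origin, and the mean numbers of peaks at the 10 genes were 39 (WT), 30.5 (APH) and 31.5 (CDC6). In gene bodies alone they were 24 (WT), 16.5 (APH) and 15.5 (CDC6). With a −log10 q-value of at least 2 they were 21.5 (WT), 14.5 (APH) and 16 (CDC6), and in the second lists as labelled 16.5 (WT), 11 (APH) and 9 (CDC6). Without either library the number was 23 to 36 for WT, 21 to 22 for APH and 22 to 24 for CDC6.

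The replicate block left the count at 0 genes in each comparison. The deviations of libraries of the same number had correlations of -0.156 (WT with APH), 0.0183 (WT with CDC6) and -0.0674 (APH with CDC6). The WT deviation also holds the difference between mESC lines, and peak numbers are small. These correlations therefore cannot decide whether libraries of the same number share a batch, which was not tested. Prim2 stayed at -0.95 for CDC6 minus WT with the block (limma adjusted p = 0.68), with a range of -1.42 to -0.40 over all alternatives and adjusted p from 0.116 to 0.977. The ends at -0.40 and 0.977 came from the second lists, whose labels went against those of the origin lists. Peak numbers per gene are small, depth is unknown, and each condition has 1 origin list without replicate error.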
